A study of Mus musculus with 6 samples.

Results

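Mxi1 and the other genes of the Myc-Max network were followed in 3 mouse cell lines on MouseRef-8 v2.0 BeadChips, which carry a short probe for each transcript on many beads. The network was taken as 10 genes (Mxi1, Mxd1, Mxd3, Mxd4, Mnt, Myc, Mycn, Mycl1, Max and Mlx), found by the gene name that the file gives each probe, whatever its case. They have 12 of the 25697 probes, with a pair each for Myc and Mlx, and 10 of the 18138 gene names. The set was chosen from the array values, because Mxi1 was higher in EPC_Late than in the other lines, so the values of Mxi1 are described here without a test.

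All cells came from lung tissue of athymic nude mice and were first sorted by flow cytometry as Flk-1+/c-Kit+/CD45- cells, which the study calls endothelial progenitor cells (EPC). EPC is the primary culture at passage 3 to 6. EPC_acLDL, also at passage 3 to 6, was sorted again for uptake of fluorescent acetylated low density lipoprotein, a property of endothelial cells, and only positive cells were replated. EPC_Late is the high passage culture at passage 16 to 20. By the study's account it was grown on from EPC_acLDL, so that passage number and the earlier acLDL sort cannot be told apart against EPC. Each line had 2 arrays on the same chip. The methods speak of separate experiments run in duplicate, and the series record of 3 samples in duplicate, so that whether the 2 arrays of a line came from separate cultures is not settled. The p-values may then measure only the spread between these arrays.

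Myc, Mycn and Mycl1 encode transcription factors that activate genes for growth, ribosome production and cell division. They bind DNA only as a dimer with Max, at the E-box sequence CACGTG. Mxi1 (also called Mxd2), Mxd1, Mxd3, Mxd4 and Mnt also pair with Max, occupy the same E-boxes and bring in the Sin3 and histone deacetylase repressor complex, so that the balance between Myc and its antagonists sets the output of shared target genes. Mlx is the dimer partner in a parallel arm that responds to glucose and also takes up some Mxd proteins and Mnt.

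Few transcripts were measurable on these arrays. A probe was counted as above background where its detection p-value, which ranks it among the negative control probes of the array, was below 0.05. Each array had 2177 to 2365 such probes, and 88.8% of all probes reached this level on none of the 6 arrays. The median intensity per array was 305 to 359, and the dimmest probe above background was at 416 to 469. Genes that nearly every cell uses were often among the dim ones. Of 18 such genes with a probe, a set picked after their values were seen, 13 were above background on no array, among them Gapdh, Ldha, Fth1, Vim and Rplp0, while Actb, Ppia and Ubb were bright. Of 71 probes for ribosomal proteins, 44 were above background on no array. A dim probe here is therefore not a sign that the transcript was missing. Whether RNA quality, the hybridization or the match between the RNA and the mouse probes had a part in this was not tested, and it bears on every intensity given here. Of the endothelial markers only Kdr, which encodes Flk-1, was above background (1 of 16, on all 6 arrays), and Pecam1, Cdh5, Tek and Vwf were not. Of the markers of other cell types, Col1a2 (1 of 9 fibroblast markers), Acta2 (1 of 4 smooth muscle markers) and Cdh1 (1 of 7 epithelial markers) were above background, each on all 6 arrays. None of 6 blood cell markers was. Of all gene names, 85.5% were above background on no array, and no cell type is read from 1 marker of a list.

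Promoter sequences from RefSeq (GRCm38.p6, 250 bases before to 50 after each annotated start) show which network genes carry the letters that their own products bind. Windows were listed for 9 of the 10 genes, all but Myc, and 4 genes held CACGTG. This sequence reads the same on both strands. It was found in 2349 of 32851 windows in the table (7.15%), or 8.09% of genes. The 4 sites are printed 5′ to 3′ on the strand of the gene, with the E-box in capitals.

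Max: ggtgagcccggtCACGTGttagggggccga
Mlx: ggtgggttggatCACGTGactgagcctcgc
Mnt: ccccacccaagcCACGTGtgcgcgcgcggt
Mxd4: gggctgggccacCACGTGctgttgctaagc

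The Max site (chr12:76962234-76962263, minus strand) began 3 bases before the annotated start. Those of Mlx (chr11:101087238-101087267, plus strand), Mnt (chr11:74830789-74830818, plus strand) and Mxd4 (chr5:34187912-34187941, minus strand) began 40, 123 and 219 bases before it. None of the 3 windows of Mxi1 held these letters, and neither did those of Mxd1, Mxd3, Mycn and Mycl1 (Mycl in RefSeq). The probe sequences of the array were not used here.

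Mxi1, a repressor of the Mxd family, was above background in EPC_Late alone, on 2 of the 6 arrays. Its intensity was 364 and 361 in EPC, 392 and 456 in EPC_acLDL, and 1179 and 1328 in EPC_Late. The EPC_Late arrays stood far apart from the other 4, which lay close to the background and whose detection p-values ran from 0.0564 to 0.310. After background correction and quantile normalization the mean log2 intensity of Mxi1 was 9.90 ± 0.18 (SD, n = 2) in EPC_Late, 6.56 ± 0.17 in EPC_acLDL and 6.04 ± 0.25 in EPC. All directions given here follow the sample labels. The study's own gene list does not name Mxi1 or Max, and it gives the reverse direction for EPC_Late for most of its genes that were above background here, among them E2f1, Tyms, Ctps, Gadd45a and Gm8909. This bears on the direction of every EPC_Late difference given here, and its source was not tested.

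Because the early lines were not above background, their Mxi1 signal has only an upper limit. On the background-corrected scale, and set against the dimmest probe above background on each array or the Mxi1 signal itself where that was higher, Mxi1 was at least 8.35-fold higher in EPC_Late than in EPC and at least 8.77-fold higher than in EPC_acLDL. These limits hold on that scale only. The mean deposited intensities, with the background left in, were 3.46-fold and 2.96-fold apart. The EPC_acLDL arrays were both brighter than the EPC arrays, but no fold is given between 2 lines that are both below background. The distance between the EPC_Late and EPC means rests on EPC values below background and is no measured difference. It was 3.86 log2 units here, 2.73 with a normexp correction at an offset of 50 and 1.80 with no background correction. Mxi1 was one of 41 probes above background on both EPC_Late arrays and on no other array.

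**Figure D1:**
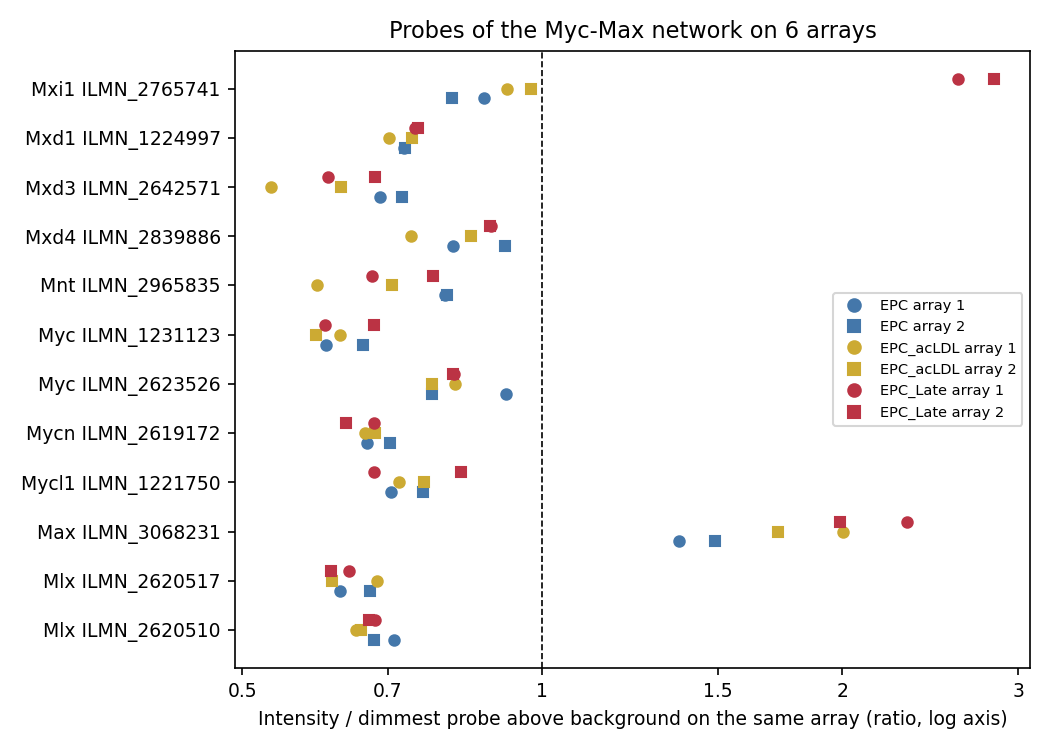
Intensity of the 12 network probes on the 6 arrays, as a ratio to the dimmest probe above background on the same array (log axis, dashed line at 1). Circles and squares are the 2 arrays of each line. Max lies to the right of the line on all 6 arrays and Mxi1 only on the EPC_Late arrays, at 2.61 and 2.84, while all other probes lie to the left.

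Max, the shared partner of Myc and of its antagonists, was the other network gene above background, on all 6 arrays. Its intensity was 571 and 663 in EPC, 849 and 808 in EPC_acLDL, and 1049 and 932 in EPC_Late. No line overlapped another, with EPC lowest and EPC_Late highest. The normalized log2 mean was 8.28 ± 0.26 (SD, n = 2) in EPC, 8.79 ± 0.12 in EPC_acLDL and 9.30 ± 0.24 in EPC_Late.

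Max rose from EPC to EPC_Late by 1.02 log2 units (SE 0.18, 95% interval 0.57 to 1.46), which is 2.02-fold (limma, adjusted p = 0.0092). The size depended on the background correction and was 0.78 with normexp at an offset of 50 and 0.57 with no correction. In that comparison 557 of the 2333 probes tested were called (23.9%), 10.9% higher and 13.0% lower in EPC_Late. Neither step between neighbouring lines passed the test, and their sizes depended on the scaling. EPC_acLDL minus EPC was 0.51 (95% interval 0.07 to 0.95, limma adjusted p = 0.191), where 3.3% of all probes were called. EPC_Late minus EPC_acLDL was 0.51 (95% interval 0.07 to 0.95, limma adjusted p = 0.109), where 20.9% of all probes were called, 9.34% higher and 11.5% lower in EPC_Late. Without normalization between arrays the steps were 0.79 (limma adjusted p = 0.040) and 0.35, and with a shift to the 75th percentile 0.70 and 0.36. The comparisons share arrays, so that their values are not independent of each other. Among all calls, 58.4% were higher in EPC_acLDL than in EPC and 44.8% higher in EPC_Late than in EPC_acLDL. These shares were 91.6% and 24.5% without normalization between arrays, where the median of all probes shifted by 0.25 and -0.16, and 82.6% and 26.1% with a shift to the 75th percentile, where it shifted by 0.16 and -0.15. Without EPC_Late replicate 1 the rise in Max from EPC to EPC_Late was 0.84 and no longer passed (limma adjusted p = 0.057).

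**Figure D2:**
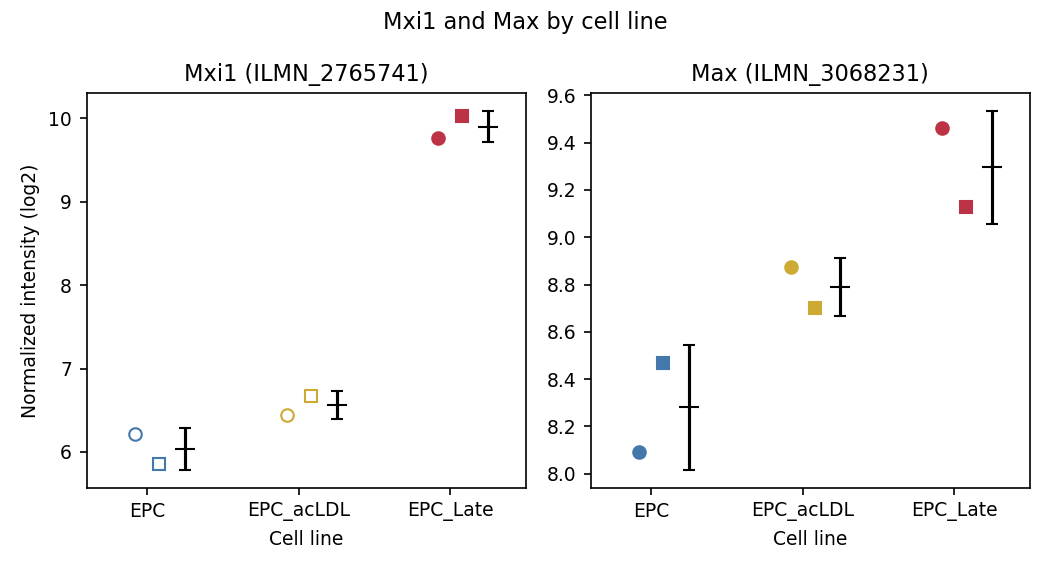
Normalized log2 intensity of Mxi1 (left) and Max (right) in the 3 cell lines, each on an axis of its own. Circles and squares are the 2 arrays of a line, open where the probe was not above background, and bars give the mean ± SD. Mxi1 is near 6 to 7 in the early lines and near 10 in EPC_Late, and Max steps up from 8.28 to 8.79 to 9.30.

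The activators themselves were not measurable. The 2 Myc probes were above background on 0 of 6 arrays, ILMN_1231123 at intensities of 253 to 317 and ILMN_2623526 at 346 to 383. Mycn (278 to 318) and Mycl1 (294 to 388) were likewise above background on 0 of 6 arrays. No Myc family level can be set against the rise in Mxi1, since each of these 4 probes stayed below the dimmest probe above background on every array.

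The other repressors were also dim. Mxd1 (298 to 352), Mxd3 (227 to 322), Mxd4 (313 to 415) and Mnt (252 to 364) were above background on 0 of 6 arrays. Mxd4 came nearest, with a detection p-value of 0.0789 on EPC replicate 2. The 2 Mlx probes were at 261 to 299 (ILMN_2620517) and 276 to 314 (ILMN_2620510), again on 0 of 6 arrays. Across these 8 genes the detection p-value ran from 0.0789 to 0.987. With the filter on dim probes left out, none of the 30 comparisons of their 10 probes was called by limma (lowest adjusted p = 0.543), and 1 had an unadjusted p below 0.05.

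The 5 probes whose pattern over the 6 arrays was most like that of Mxi1 were those of Lrba, Nnmt, Eef2, Vezf1 and Gm8909 (EG667977 in the file). Their Pearson correlations with Mxi1 over the 6 normalized arrays were 0.995 to 0.997, and 105 of the 2332 other probes tested were above 0.95. Such values are a description, since the 6 points are 3 lines in duplicate and 4 of them lay below background for Mxi1. Max had a correlation of 0.83, which placed it 270th.

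Nnmt, a nicotinamide methyltransferase, was like Mxi1 below background in EPC and well above it in EPC_Late. Its intensity was 408 and 434 in EPC, 438 and 518 in EPC_acLDL, and 1117 and 1158 in EPC_Late, a 2.70-fold ratio of means with the background left in, and at least 7.06-fold higher in EPC_Late than in EPC on the background-corrected scale. Gm8909 was above background on all 6 arrays and differed by 3.44 log2 units between EPC_Late and EPC, while its mean intensities were 3.96-fold apart with the background left in. Eef2, the elongation factor that moves the ribosome along the message, was bright throughout, and the difference was 0.99. Lrba, a vesicle trafficking protein, was below background on both EPC arrays and above it on the other 4. It was at least 2.57-fold higher in EPC_Late than in EPC on the background-corrected scale, while the means with the background left in were 1.54-fold apart. The transcription factor Vezf1 differed by 0.68 log2 units. These genes were chosen by their likeness to Mxi1, so their differences are given without a test.

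**Figure D3:**
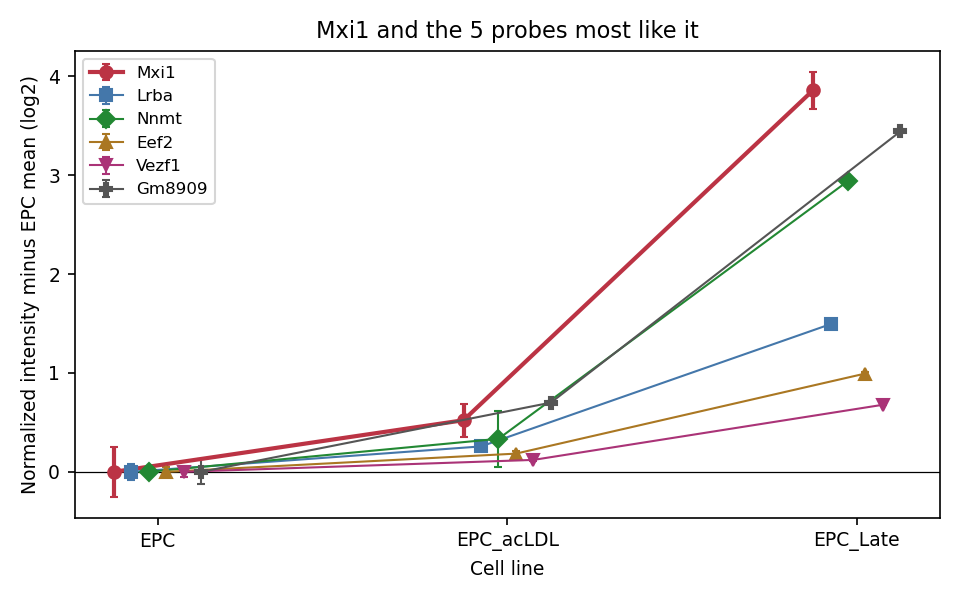
Normalized log2 intensity of Mxi1 and of the 5 probes most like it, as the difference from the EPC mean of the same probe, in the 3 cell lines. Points are means and bars the SD over 2 arrays. Each of the 6 curves is highest in EPC_Late, with Gm8909 at 3.44 and Vezf1 at 0.68 above EPC. The Mxi1 points in EPC and EPC_acLDL, and those of Nnmt and Lrba in EPC, lie below background, so that the distance from them is no measured fold.

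Among the lists used here, known Myc-activated genes had the most measured members, and whether their levels followed the network was not tested. A list of 75 known targets in ribosome production, metabolism and the cell cycle had probes for 68 genes, and 21 passed the filter, which asked for signal above background in duplicate in 1 or more lines. Of these, 3 are given without a test and are left out of the counts. Eif4a1 and Umps were above background on only 1 EPC_Late array, and Npm1 lay near the top of the scale. The other 18 genes were above background on all 6 arrays by the probe that was read. Some had further probes that did not pass the filter. Those that passed were 1 of 5 for Tyms, 1 of 3 for Ctps, 2 of 3 for Nme2, and 1 of 2 each for Shmt2, Eif5a and Hspd1. From EPC to EPC_Late 12 fell and 1 rose, and from EPC_acLDL to EPC_Late 12 fell and 1 rose, beside 13.0% and 11.5% of all probes called lower. Those shares take in probes above background in only 1 line, unlike the 18 genes. The methods' t-test on the 4 arrays of each pair of lines passed 11 and 10 of the 18 unadjusted and 0 after Benjamini-Hochberg adjustment. Between EPC_acLDL and EPC limma called none of the 18, with 3 at an unadjusted p below 0.05, while 7 passed the methods' t-test unadjusted and 4 were called with robust variances. The share of all probes passing under these settings was not taken, so that whether these counts stand out is not shown. The median log2 difference of the 18 genes was -0.72 for EPC_Late minus EPC, -0.82 for EPC_Late minus EPC_acLDL and 0.01 for EPC_acLDL minus EPC, and that of all probes tested was 0.01, 0.00 and 0.01. Leaving out EPC replicate 2 or EPC_Late replicate 2 left 8 of the 18 called between EPC_Late and EPC.

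The metabolic targets held the largest falls. Ctps, which makes CTP, was at 4930.2 and 4703 in EPC, 4862 and 4785 in EPC_acLDL, and 1612 and 1777 in EPC_Late. It fell by 1.77 log2 units from EPC to EPC_Late (SE 0.11, limma adjusted p = 0.00022), which is 3.41-fold. Cad, the enzyme of the first steps of pyrimidine synthesis, was at 1939 and 1756 in EPC, 1683 and 1720 in EPC_acLDL, and 861 and 829 in EPC_Late. The EPC_Late arrays lay below the other 4 for both pyrimidine genes. Cad fell by 1.72 (SE 0.12, limma adjusted p = 0.00027), which is 3.29-fold. Mthfd1, an enzyme of folate metabolism, fell by 1.24 (SE 0.17, limma adjusted p = 0.0028), from 1733 and 1851 in EPC to 925 and 1112 in EPC_Late.

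Of the 10 metabolic targets that were counted, 6 fell and 1 rose from EPC to EPC_Late, beside 13.0% and 10.9% of all probes, and 3 were not called. These 7 calls went to 4 without EPC replicate 2 or EPC_Late replicate 2. Odc1, the first enzyme of polyamine synthesis, was at 609 and 652 in EPC and at 460.1 and 555 in EPC_Late. It fell by 1.11 (limma adjusted p = 0.014), against -0.44 with no background correction, and the call was lost when 2 of the arrays were left out in turn (adjusted p up to 0.071). The chaperonin Hspd1 fell by 0.69. For Nme2, a nucleoside diphosphate kinase, 2 probes passed the filter and gave log2 differences of unlike size, -0.65 for the brighter ILMN_3150658 and -1.47 for ILMN_2705935. Hspe1, the partner of Hspd1, differed by 0.17, and the glycolytic enzyme Eno1 by -0.01. Shmt2, the mitochondrial serine hydroxymethyltransferase, was the exception that rose. Its intensity was 5370.2 and 5366 in EPC, 5344 and 5021 in EPC_acLDL, and 7657 and 8030.1 in EPC_Late, and it rose by 0.55 from EPC to EPC_Late (SE 0.11, limma adjusted p = 0.014). Leaving out any one EPC or EPC_Late array ended the Shmt2 call, with adjusted p from 0.051 to 0.079.

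Of the 6 targets in ribosome production and translation that were counted, 4 fell from EPC to EPC_Late and none rose, beside 13.0% of all probes called lower. Leaving out any one EPC or EPC_Late array left 2 of the 4 calls. Mrto4, which takes part in assembly of the large ribosomal subunit, was at 1295 and 1279.9 in EPC, 1399 and 1331 in EPC_acLDL, and 665 and 741 in EPC_Late. The EPC_Late arrays lay below all others, and Mrto4 fell 2.84-fold from EPC to EPC_Late (SE 0.13 in log2 units, limma adjusted p = 0.00062). That is -1.50 on the log2 scale, against -0.95 with no background correction. The initiation factor Eif4g1 fell by 0.79 (SE 0.11, limma adjusted p = 0.0031), from 6703 and 6205 to 4030.5 and 4083. Its RNA helicase partner Eif4a1 was at 642 and 554 in EPC and at 441 and 491 in EPC_Late, where only 1 array was above background.

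Eif5a, which helps the ribosome past difficult stretches, was highest in EPC_acLDL, at 3199 and 2703, against 1698 and 1769.6 in EPC and 1508 and 1292 in EPC_Late. It fell by 1.11 from EPC_acLDL to EPC_Late (limma adjusted p = 0.0039), while EPC_Late minus EPC was -0.48 (adjusted p = 0.064). Rrp9, which acts on ribosomal RNA, was at 538 and 535 in EPC and at 494 and 477 in EPC_Late, a 1.11-fold ratio of means. It fell by 0.75 on the corrected scale (limma adjusted p = 0.034), against -0.26 with no background correction, and the call was lost without 4 of the 6 arrays in turn (adjusted p up to 0.172). Nop56, a protein of the same kind of particle, fell by 0.47 (limma adjusted p = 0.044), a call that was lost without any one array (adjusted p from 0.051 to 0.193). The nucleolar protein Npm1 was among the 10 brightest probes of every array, at 68492 to 71836, near the top of the scale, and no difference is read from it.

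Of the 19 cell cycle targets with a probe, 2 passed the filter. By the sample labels both fell from EPC to EPC_Late, beside 13.0% of all probes called lower. E2f1, a transcription factor for entry into S phase, was at 9435 and 8821 in EPC, 12609 and 12106 in EPC_acLDL, and 4549 and 4395 in EPC_Late. It fell by 1.14 log2 units from EPC to EPC_Late (SE 0.11, limma adjusted p = 0.00095), which is 2.20-fold. Tyms, thymidylate synthase, was at 1529.8 and 1553 in EPC, 1862 and 2033 in EPC_acLDL, and 871 and 942 in EPC_Late, and fell by 1.25 (SE 0.12, limma adjusted p = 0.00097). The EPC_Late arrays were the lowest for both genes. The other cell cycle targets with a probe, among them Ccnd2, Pcna and Mcm2, did not pass the filter.

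**Figure D4:**
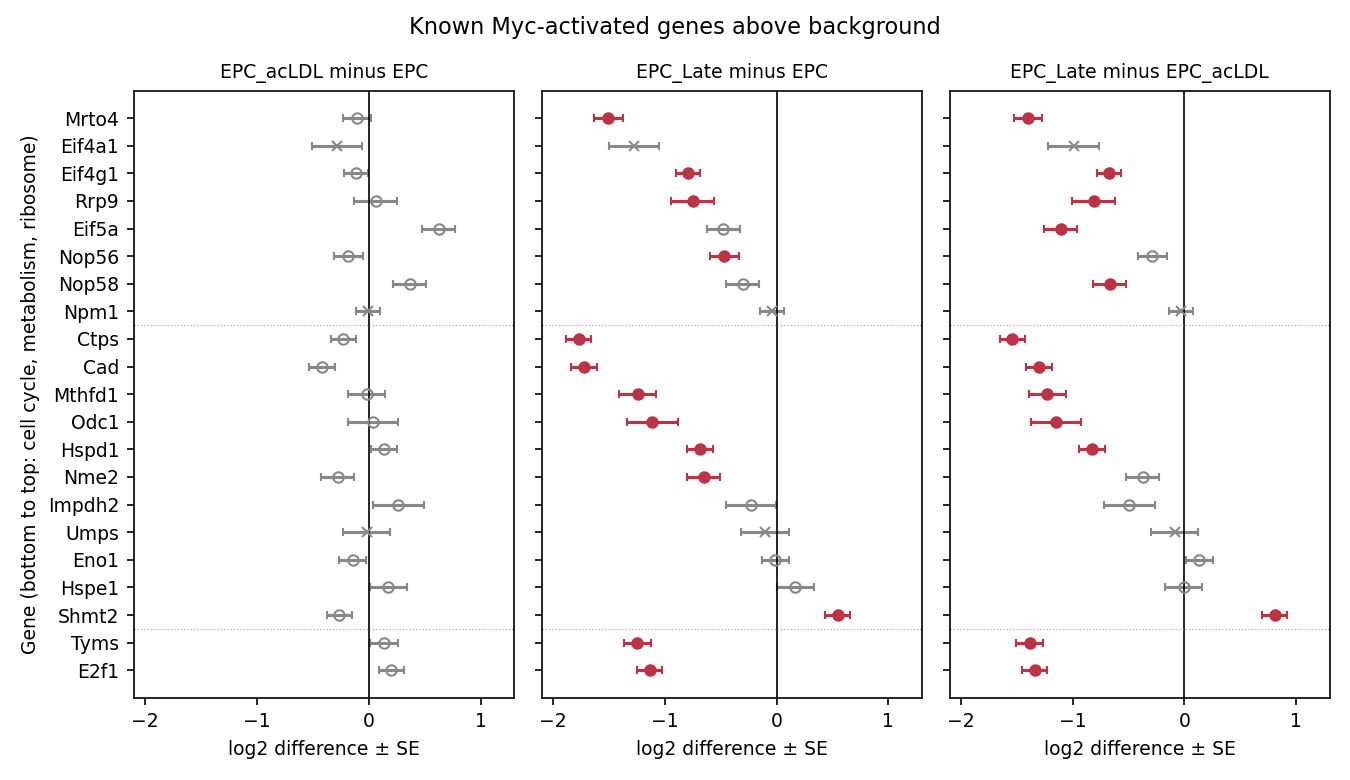
Log2 difference (point) ± SE of the 21 known Myc-activated genes above background in the 3 comparisons, with cell cycle genes at the bottom, then metabolism, then ribosome and translation. Filled red points passed an adjusted p of 0.05 in limma, and crosses mark Eif4a1, Npm1 and Umps, which were not counted. No point is filled for EPC_acLDL minus EPC, while 12 genes lie left of 0 and filled in each of the comparisons with EPC_Late, and Shmt2 lies right.

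Genes known to be held down by Myc were mostly dim, and 2 of the 13 passed the filter, each by 1 of its 2 probes. Ddit3, a stress response transcription factor, was at 484 and 509.8 in EPC, 431 and 481 in EPC_acLDL, and 729.6 and 882 in EPC_Late. Its EPC_Late arrays lay above the other 4, and it rose by 1.29 from EPC to EPC_Late (SE 0.16, limma adjusted p = 0.0024), which is 2.44-fold. The size depended on the background correction, with 0.88 for normexp at an offset of 50 and 0.59 for no correction, and the mean deposited intensities were 1.62-fold apart. Gadd45a, a growth arrest gene, was above background on the EPC_Late arrays only, at 467 and 481, against 322 to 413 on the others. Because it passed the filter through the EPC_Late arrays alone, its difference is given without a test. The inhibitors of cyclin-dependent kinases on this list (Cdkn1a, Cdkn1b, Cdkn1c and Cdkn2b) did not pass the filter.

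The complexes through which the network acts were sparsely measured. Of 11 genes of the Sin3 and deacetylase complex with a probe, Sin3a alone passed the filter. Sin3a, the scaffold that Mxi1 and the Mxd proteins bind, was at 773 and 785 in EPC, 865 and 853 in EPC_acLDL, and 827 and 828 in EPC_Late. It differed by -0.02 between EPC_Late and EPC (SE 0.11, limma adjusted p = 0.929).

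Of the 13 coactivator genes, 4 passed the filter. Kat5, an acetyltransferase that Myc recruits, was at 384 and 474 in EPC (1 of them above background) and at 594 and 601 in EPC_Late, a 1.39-fold ratio of mean intensities, and is given without a test because it passed the filter through EPC_acLDL and EPC_Late, where it was brighter. Ruvbl2, a helicase of the same complex, fell by 0.69 (SE 0.12, limma adjusted p = 0.0076), from 9114 and 8071 in EPC to 5474 and 5646 in EPC_Late. Cdk9 and Smarcb1 differed by 0.11 and -0.28 and were not called. None of 9 genes for Myc protein turnover and none of 10 other E-box factors with a probe passed the filter.

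Mxi1 is also known as a target of hypoxia-inducible factors and of FoxO factors, and few genes of either list were measurable. Of 24 hypoxia targets with a probe, Kdm3a and Eno1 passed the filter. Kdm3a, a histone demethylase, was at 396 and 431 in EPC, where it was below background, and at 495 and 498 in EPC_Late, and no test is given because it passed the filter through EPC_acLDL and EPC_Late alone. Of 15 FoxO targets, Bcl2l11, which encodes the cell death protein Bim, was at 438 and 418 in EPC (1 of them above background) and at 723 and 663 in EPC_Late, a 1.62-fold ratio of mean intensities, and like Kat5 is given without a test. Gadd45a, above, is also on this list, and Sod2 was not called.

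Sequence near the start sites was compared for the targets that were lower. CACGTG was present in the windows of 3 of the 12 targets that were lower in EPC_Late than in EPC (Eif4g1, Hspd1 and Tyms), and of 15 of all 66 targets with a window (22.7%). For all genes past the filter with a window it was present in 193 of 1612, for those higher in EPC_Late in 12.9% and for those lower in 13.9%. The sites in these 3 targets are shown because their letters match those in the Max promoter, with the E-box in capitals. Eif4g1 had 1 before and 1 after the start.

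Eif4g1, before: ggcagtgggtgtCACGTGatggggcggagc
Eif4g1, after: ctctgcgccggtCACGTGgggcgctggctg
Hspd1: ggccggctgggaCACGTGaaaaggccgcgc
Tyms: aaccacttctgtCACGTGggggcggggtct

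In order, they lie at chr16:20672661-20672690 and chr16:20672730-20672759 (plus strand), chr1:55088306-55088335 (minus strand) and chr5:30073669-30073698 (minus strand) of GRCm38.p6. A match describes the letters alone, and whether Max, Myc or Mxi1 occupied any of them was not measured.

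**Figure D5:**
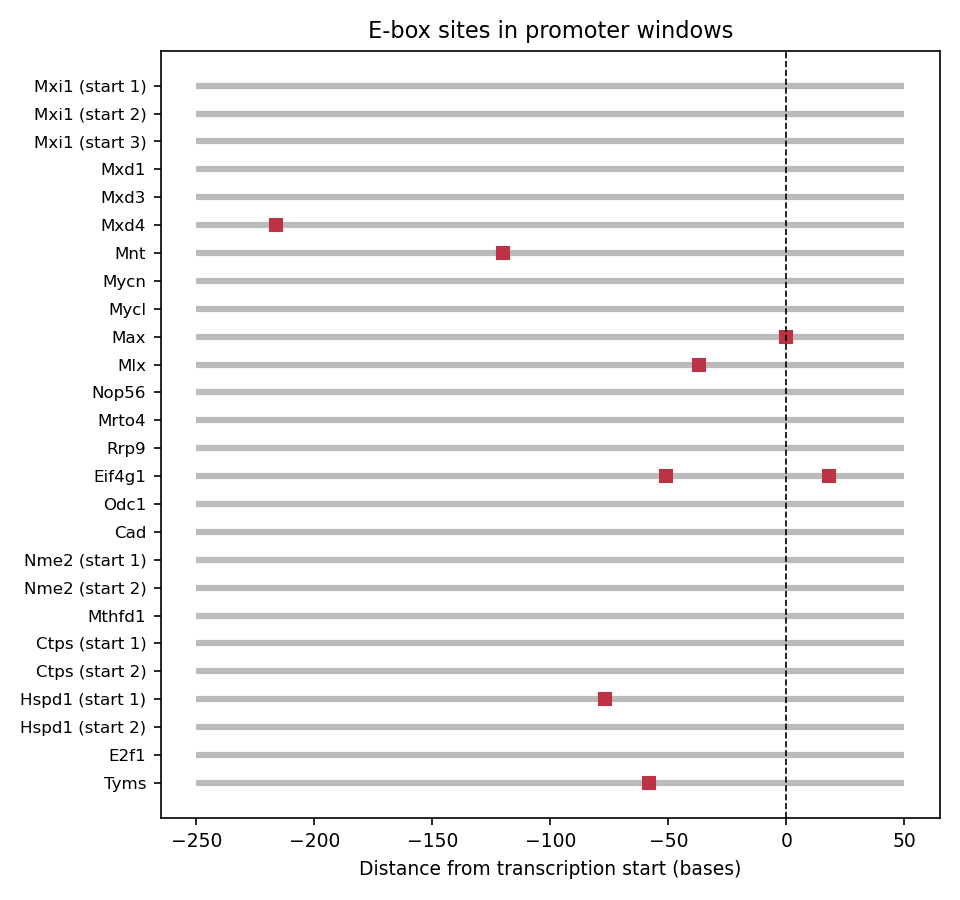
Position of CACGTG (red squares at its centre) in promoter windows from 250 bases before to 50 after the annotated start (dashed line at 0), for the network genes and the 12 Myc-activated targets lower in EPC_Late. Of the network genes, Mxd4, Mnt, Max and Mlx hold a site, and the 3 windows of Mxi1 hold none.

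Levels of other cell type markers were set beside these results. Col1a2, a fibroblast collagen, was the only marker called, 0.43 log2 units higher in EPC_Late than in EPC (limma adjusted p = 0.047), and that call was lost when any one array was left out and with the replicate block (adjusted p = 0.058). The summed intensity of the 9 fibroblast markers was 2835 to 3172 in EPC, 2898 to 3247 in EPC_acLDL and 3151 to 3388 in EPC_Late, so that these ranges overlapped. That of the 16 endothelial markers was 5192 to 5748, 5283 to 5788 and 5699 to 6021 in the same order, and that of the 4 smooth muscle markers 1458 to 1491, 1455 to 1609 and 1512 to 1612. The epithelial sum was 2329 to 2526, 2465 to 2598 and 2659 to 2759 and the blood cell sum 1867 to 2060.0, 1854 to 2080.0 and 2118 to 2210.4, both highest on the EPC_Late arrays, although all 6 blood cell markers and all epithelial markers but Cdh1 were at background. In bulk RNA, a smaller share of cells with a transcript and less RNA per cell cannot be told apart, and the part of cell makeup in the Mxi1 and target differences was not tested.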

How the data were processed

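RNA of 3 cell lines was hybridized to 6 arrays. The authors summarized beads in BeadStudio with local background correction and deposited, without normalization, a linear intensity for each probe with its detection p-value. A genome build is not given in the sources used here. Here limma 3.58.1 in R 4.3.3 was applied to them: neqc (background from the detection p-values, offset 16, quantile normalization, log2), a filter for detection p-values below 0.05 in duplicate in 1 or more lines (2333 of 25697 probes, 9.08%), then lmFit and eBayes on all 6 arrays with Benjamini-Hochberg adjustment over all probes tested and a threshold of 0.05. A gene was read by its brightest probe over the 6 arrays. The steps were tested on simulated data. The members and lists were chosen with earlier results of these data known. Beside the network, genes were named where they were called between EPC_Late and EPC in a list, up to 3 in each direction by size, plus the 5 probes most like Mxi1, and genes outside this rule were picked after their values were seen. Names came from the file, with spelling from RefSeq (20736 probes by symbol, 3840 by synonym, 1121 unmatched). The number of arrays limits the precision. Alternatives were other background corrections, scalings, filters, variance models, the methods' t-test, any probe of a gene, the replicate block and each array left out.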

Additional observations from a re-analysis of the deposited data

How the results depend on the processing

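The Mxi1 differences, which rest on early lines below background, moved with the background correction, with EPC_Late minus EPC at 2.73 (normexp, offset 50) and 1.80 (no background correction), and EPC_Late minus EPC_acLDL at 2.33 and 1.61. No value is given for Mxi1 between EPC_acLDL and EPC, both below background. For Max, EPC_Late minus EPC was 0.78 and 0.57 under the same corrections and ranged from 0.84 to 1.20 with 1 array left out, and the call was lost without EPC_Late replicate 1 and in the methods' t-test, with the same difference of 1.02 (unadjusted p = 0.056, adjusted p = 0.215). Max was called between EPC_acLDL and EPC without normalization between arrays (0.79), and between EPC_Late and EPC_acLDL with no background correction (0.31) and with robust variances (0.51). The count of network genes called besides Mxi1 thus went from 0 to 1 under those 3 settings, and for EPC_Late minus EPC from 1 to 0 in both forms of the t-test and to between 0 and 1 with an array left out. Between EPC_acLDL and EPC the Myc-activated genes called went from 0 to 2 (normexp, offset 50), 3 (no background correction), 1 (75th percentile shift), 2 (no normalization between arrays), 2 (detection p below 0.01), 4 (robust variances) and 7 (unadjusted t-test). With EPC_Late, and with Eif4a1 counted (14 in each), they ranged from 9 to 13 against EPC and from 9 to 14 against EPC_acLDL with an array left out, and none passed the adjusted t-test, while the unadjusted one passed 14 of the 17 genes called between EPC_Late and EPC and above background on all 6 arrays (all but Max, Nop56 and Odc1). Of these 17, 6 were over 1.5 times as large as with no background correction, namely Max, Ddit3 (0.59), Mrto4 (-0.95), Rrp9 (-0.26), Odc1 (-0.44) and Col1a2 (0.14). Eif4a1 passed the filter through EPC and EPC_acLDL alone, where it was brighter, so that its calls in the counts with an array left out are no test. Without it, 13 of the 18 counted Myc-activated genes were called in each comparison with EPC_Late. With the replicate block the calls among these 18 stayed at 0, 13 and 13. Of the same 17 genes, 16 were called with the block, all but Col1a2. The deviations of same-numbered arrays had correlations of 0.02 to 0.08. This does not settle whether such arrays shared an experiment, since noise of probes near background can hide a shared part. No difference of Max or of the 10 genes named by rule from the lists and measured in both lines reversed under the alternatives run. Those 10 were named for their calls in these data, and the direction of Mxi1 was fixed by how it was chosen, so that neither is a check. Signal over background is one limit, since 8 of the 10 network genes could not be measured, and 2 arrays per line is another. The cause of these changes was not tested.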
